A study of Homo sapiens with 6 samples.

Results

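The 8 genes described here encode the GADD45 proteins (GADD45A, GADD45B and GADD45G) and the BTG/TOB proteins (BTG1, BTG2, BTG3, TOB1 and TOB2), small proteins known for slowing cell proliferation. They were chosen by gene symbol, with the response to treatment in these data already known, so the difference between treatments, including whether it passed the threshold used for all genes, is a description for them and not a test. They are 8 of the 57820 annotated genes in the deposited table, and each symbol stands on 1 row. The libraries are of polyadenylated RNA of U2OS, a long-established line from a human osteosarcoma, after 4 h with 5 µM NMS-873 (3 libraries) or 4 h with 0.05% DMSO, its solvent (3 libraries). NMS-873 inhibits VCP, also called p97, an ATPase that extracts ubiquitylated proteins from membranes and complexes. All libraries came from the same line, and the labels leave it unsaid whether libraries of 1 treatment are of separate cultures. The p-values given therefore reflect the spread of these samples alone, pooled largely over genes, and that spread may be technical. In such bulk RNA, fewer cells of a kind and less RNA in each cell cannot be told apart.

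GADD45 proteins are stress-induced and bind the kinase MAP3K4, which lies upstream of p38 and JNK, as well as PCNA and the CDK1 and cyclin B1 complex; they also take part in active DNA demethylation. BTG and TOB proteins share an amino-terminal BTG domain through which they bind the CNOT7 and CNOT8 deadenylases of the CCR4-NOT complex, and so promote shortening of the poly(A) tails of messenger RNAs. GADD45A, GADD45B, BTG1 and BTG2 are known as fast-responding genes with short-lived transcripts in many cell types, and GADD45A and BTG2 are textbook targets of p53, which U2OS cells carry in wild-type form. GADD45A is also a known target of the ATF4 branch of the integrated stress response.

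The libraries held 21132311 to 22488952 reads in genes, and 14889 genes whose normalised counts averaged 10 or more were tested. Normalised counts are reads divided by a size factor taken from the added ERCC spike-in RNA. On this scale the median gene was at -0.10 (log2 fold change, NMS-873 over DMSO), and it was at 0.01 with TMM factors and 0.00 with median-of-ratios factors, both computed over genes. NMS-873 replicate 1 stood apart from its group, with a chi-square per degree of freedom of 6.84 and 7.27 against NMS-873 replicates 2 and 3, while these 2 gave 1.72 against each other and the DMSO pairs 1.47 to 3.33. Of the 7 mesenchymal and osteoblast markers, SPARC, COL1A1, VIM and CD44 were at 46.8 FPKM or more in every library, RUNX2 was at 0.607 to 0.705 FPKM with NMS-873 and 1.20 to 1.33 FPKM with DMSO, and COL1A2 and NT5E were at or under 0.0591 FPKM. The 7 summed to 1009.7 to 1058 FPKM with NMS-873 and 1139 to 1183 FPKM with DMSO, without overlap, and their part in the results was not tested. The 9 markers of other lineages summed to 1.86 to 2.15 FPKM with NMS-873 and 1.94 to 2.31 FPKM with DMSO, with EPCAM the highest and CD3E, PECAM1, MYOD1 and ALB listed at 0 in every library.

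The promoters of 3 genes are shown because their responses differed in size: BTG1 had the largest rise of the 8, BTG2 a small one, and GADD45B overlapped between treatments. Each is the 250 bases before the gene's start in RefSeq (build GRCh38.p14), 5′ to 3′ on the gene's strand, and capitals mark matches to the 7 motifs searched.
BTG1 promoter, chr12:92145847-92146096, minus strand: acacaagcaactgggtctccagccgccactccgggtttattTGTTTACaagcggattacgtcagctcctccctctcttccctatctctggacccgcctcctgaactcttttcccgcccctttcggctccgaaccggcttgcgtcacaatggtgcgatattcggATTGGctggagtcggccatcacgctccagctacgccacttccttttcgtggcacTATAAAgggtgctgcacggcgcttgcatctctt
BTG2 promoter, chr1:203305269-203305518, plus strand: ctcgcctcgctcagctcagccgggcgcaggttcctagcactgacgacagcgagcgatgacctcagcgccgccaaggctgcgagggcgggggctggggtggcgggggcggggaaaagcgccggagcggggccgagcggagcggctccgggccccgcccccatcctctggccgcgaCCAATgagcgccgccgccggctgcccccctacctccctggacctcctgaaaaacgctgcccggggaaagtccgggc
GADD45B promoter, chr19:2475877-2476126, plus strand: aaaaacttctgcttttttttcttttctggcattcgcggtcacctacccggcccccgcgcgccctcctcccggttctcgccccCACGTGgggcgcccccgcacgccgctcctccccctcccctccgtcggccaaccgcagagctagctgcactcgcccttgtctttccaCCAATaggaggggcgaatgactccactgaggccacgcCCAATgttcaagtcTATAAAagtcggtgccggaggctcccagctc

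Both strands were searched for 7 short motifs, and no matches overlapped each other in the 8 promoter entries searched, which belong to GADD45B, GADD45G, BTG1, BTG2, BTG3, TOB2 and, with 2 entries, TOB1. TGACGTCA, the full cyclic AMP response element or CRE, occurred in 1.65% of all 35116 promoters in the table. TGATGNAA, the composite C/EBP-ATF element that CHOP and ATF4 partners are known to use, occurred in 3.14% of them. TGANTCA, the AP-1 element, occurred in 6.57% of promoters. CACGTG, the E-box bound by MYC and by TFE factors, occurred in 6.34% of promoters. GTAAACA, the element of forkhead box O factors, occurred in 2.98% of promoters. TATAAA, the letters of the TATA box, occurred in 10.7% of promoters. CCAAT, bound by NF-Y, was the most frequent and occurred in 32.0% of promoters. In BTG1 the capitals are a FOXO match on the opposite strand 209 bases before the start, a CCAAT box on the opposite strand at 87 and a TATA box at 33. GADD45B has the E-box at 168, CCAAT boxes at 82 and 45 and a TATA box at 31, and BTG2 has 1 CCAAT box, at 76. GADD45G carried a C/EBP-ATF match on the opposite strand at 102, an E-box at 143 and a CCAAT box at 79, 1 of the 2 TOB1 entries carried a CCAAT box at 186, and BTG3 and TOB2 carried none of the 7. Neither the full CRE nor the AP-1 letters were found in the 8 entries, and shorter or variant forms of the motifs were not searched. The TATA box was present both in the BTG1 promoter, whose transcript differed most between treatments, and in that of GADD45B, whose groups overlapped. A link between any of these letters and the response was not tested. The 250 bases were 56.4% G and C in BTG1, 61.6% in GADD45G, 63.2% in GADD45B, 74.8% in BTG2 and 78.4% in BTG3. TOB2 was at 68.4%, the 2 TOB1 entries at 38.4% and 80.4%, and the median over all promoters at 58.0%. GADD45A had no entry.

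With NMS-873, GADD45A, BTG1, BTG2 and BTG3 were higher than with DMSO, TOB1 was lower, GADD45B and TOB2 overlapped between treatments, and GADD45G had no read. By the threshold applied to all genes (limma, adjusted p under 0.05), 4 of the 7 members with a read were called higher and 1 lower. Among all genes tested, 47.9% were called, 14.9% higher and 33.0% lower. That split depends on the scaling, with 2217 genes higher and 4910 lower as deposited, and 3869 higher and 2992 lower with TMM factors. The groups did not overlap for these same 5 members, 4 with NMS-873 above and 1 below, against 53.6% of all genes tested that did not overlap, 16.4% with NMS-873 above and 37.2% below. Since the members were picked with this contrast in view, nothing is read from these counts. Every member with a read passed the minimum of 10. The median log2 fold change of the 7 was 0.39, beside -0.10 over all genes tested.

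**Figure D1:**
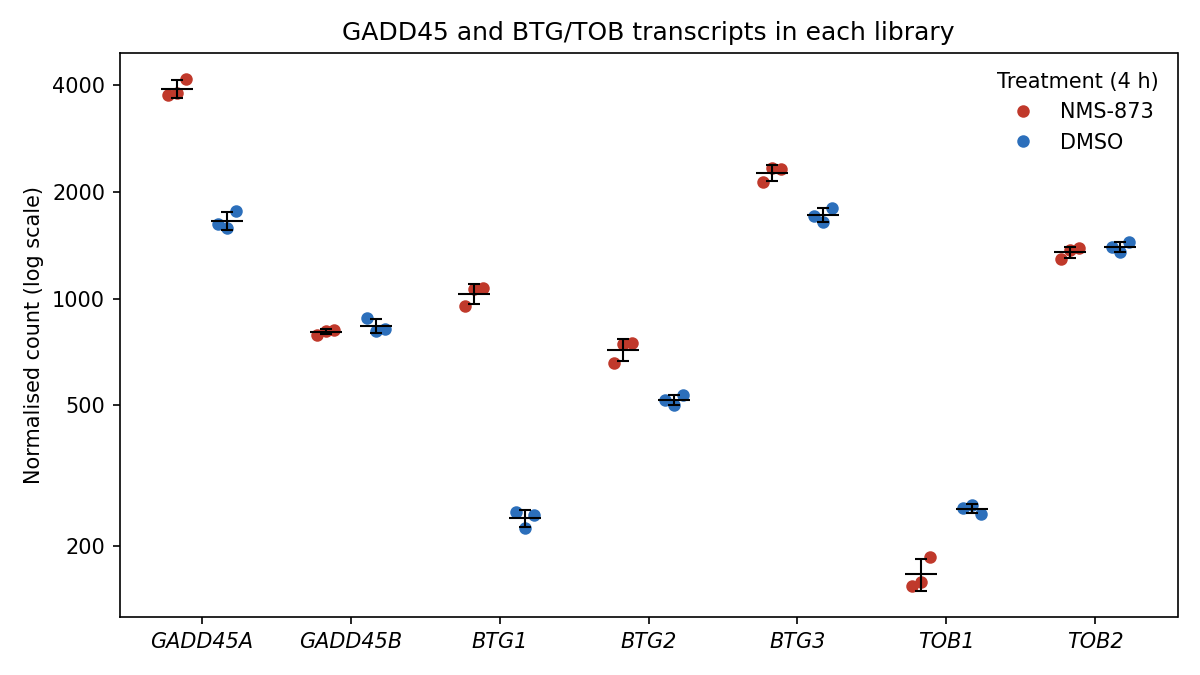
Normalised count (log axis) of the 7 members with a read in each library. Points are libraries, horizontal bars the group means, and error bars the SD (n = 3); GADD45A, BTG1, BTG2 and BTG3 have all NMS-873 points above all DMSO points, TOB1 has them below, and GADD45B and TOB2 overlap.

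GADD45A (ENSG00000116717.7; hg19 chromosome 1, 68150744 to 68154021, plus strand), the family member best known from DNA damage and nutrient stress, was at 3766, 3799.9 and 4182 normalised counts in NMS-873 replicates 1 to 3, against 1625, 1584 and 1770.3 in DMSO replicates 1 to 3. All NMS-873 libraries lay well above all DMSO libraries, with NMS-873 replicate 3 and DMSO replicate 3 the highest of their groups. The means were 3916 ± 231 with NMS-873 and 1659.8 ± 97.9 with DMSO (SD, n = 3 each), a 2.36-fold difference (log2 fold change 1.24, SE 0.0546). In reads these were 3757 to 4044 with NMS-873 and 1580 to 1784 with DMSO, so GADD45A is the most deeply counted of the 8 with NMS-873.

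GADD45B (ENSG00000099860.4; hg19 chromosome 19, 2476120 to 2478257, plus strand), known as an early response gene to TGF-beta, NF-kB and growth signals, was at 792, 812 and 816 normalised counts with NMS-873, against 884, 811 and 823 with DMSO. The groups overlapped: DMSO replicate 1 was the highest library and the other 5 lay close together. The means were 807 ± 13.0 with NMS-873 and 839 ± 39.4 with DMSO, at a log2 fold change of -0.06 (SE 0.0626), which was 0.05 with TMM or median-of-ratios factors, so its sign depends on the scaling. GADD45G (ENSG00000130222.6; hg19 chromosome 9, 92219928 to 92221470, plus strand) had 0 reads in all 6 libraries, which allows at most 0.142 reads for each 1000000 reads in genes (3 reads, counting error only).

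Of the BTG genes, BTG1 (ENSG00000133639.3; hg19 chromosome 12, 92536286 to 92539673, minus strand), an antiproliferative gene found at a translocation in B-cell leukaemia, was at 955, 1065 and 1075 normalised counts with NMS-873, against 249.9, 224 and 244 with DMSO. The NMS-873 libraries were all several times above the DMSO libraries, and NMS-873 replicate 1 was the lowest of its group. The means were 1032 ± 66.2 with NMS-873 and 239 ± 13.4 with DMSO, a 4.31-fold difference (log2 fold change 2.10, SE 0.0714), behind only 48 of the 14889 genes tested. The counts behind it were 953, 1088 and 1039 reads with NMS-873 and 243, 236 and 246 reads with DMSO. Of the 2 annotated rows that overlap BTG1, C12orf79 on the same strand held 3 to 5 reads with NMS-873 and 1 to 4 with DMSO, and a clone-named gene on the opposite strand held 0 to 2 reads in any library.

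BTG2 (ENSG00000159388.5; hg19 chromosome 1, 203274619 to 203278730, plus strand), also called TIS21 or PC3 and a p53 target, was at 659, 745 and 749 normalised counts with NMS-873, against 518, 501 and 536 with DMSO. The groups did not overlap, although NMS-873 replicate 1 sat nearer to the DMSO libraries than the other 2. The means were 717 ± 51.0 with NMS-873 and 518 ± 17.4 with DMSO, a 1.38-fold difference (log2 fold change 0.47, SE 0.0675). Without NMS-873 replicate 1 the log2 fold change was 0.53.

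BTG3 (ENSG00000154640.10; hg19 chromosome 21, 18965971 to 18985265, minus strand), a BTG protein known to bind and restrain E2F1, was at 2131, 2346 and 2319 normalised counts with NMS-873, against 1714, 1651 and 1803 with DMSO. Here too the groups were apart and NMS-873 replicate 1 was the lowest of its group. The means were 2265 ± 117 with NMS-873 and 1723 ± 76.6 with DMSO, a 1.32-fold difference (log2 fold change 0.39, SE 0.0553), and 0.44 on the log2 scale without NMS-873 replicate 1. On the spike-in scaling, all 7 members with a read had their lowest NMS-873 value in replicate 1, which stood apart from its group. TMM factors multiplied the values of this library by 1.07 and those of NMS-873 replicates 2 and 3 by 1.03 and 1.01. Which library is lowest can therefore depend on the scaling. Without NMS-873 replicate 1 the log2 fold change was 2.16 for BTG1, 1.27 for GADD45A and -0.57 for TOB1.

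TOB1 (ENSG00000141232.4; hg19 chromosome 17, 48939584 to 48945339, minus strand), an antiproliferative protein that binds poly(A)-binding protein as well as the deadenylases, was at 154, 159 and 186 normalised counts with NMS-873, against 257, 261 and 247 with DMSO. All NMS-873 libraries were below all DMSO libraries, the only such case among the 8 genes. The means were 166 ± 17.3 with NMS-873 and 255 ± 7.37 with DMSO, 1.53-fold lower with NMS-873 (log2 fold change -0.62, SE 0.0957). It had 154 to 180 reads with NMS-873, the fewest of the 7, and 249 to 275 with DMSO, and TOB1-AS1 on the opposite strand held 1 to 4 reads in any library.

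TOB2 (ENSG00000183864.4; hg19 chromosome 22, 41829496 to 41843027, minus strand), its close relative, was at 1295, 1371 and 1388 normalised counts with NMS-873, against 1401, 1356 and 1444 with DMSO. The groups overlapped, with DMSO replicate 2 below NMS-873 replicates 2 and 3. The means were 1351 ± 49.4 with NMS-873 and 1400.1 ± 44.0 with DMSO, at a log2 fold change of -0.05 (SE 0.0572), which was 0.06 with TMM and 0.05 with median-of-ratios factors. TOB2P1, a pseudogene copy on chromosome 6, held 23 to 30 reads with NMS-873 and 21 to 29 reads with DMSO, beside 1292 to 1401 reads of TOB2 with NMS-873 and 1362 to 1455 with DMSO.

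**Figure D2:**
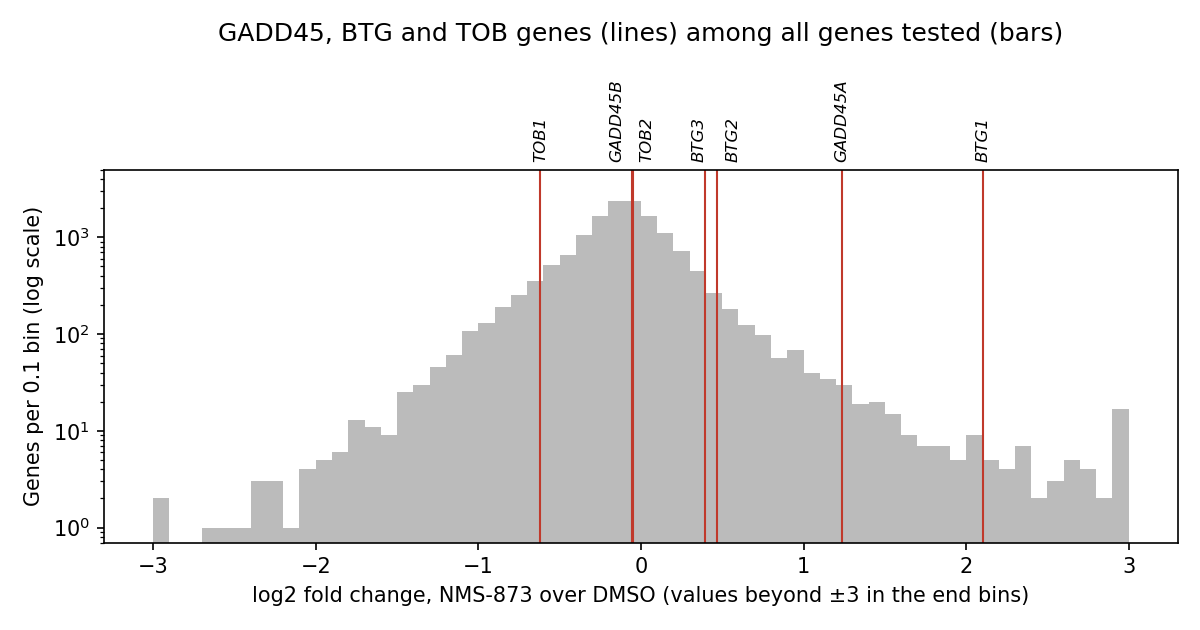
Number of genes per bin of 0.1 in log2 fold change (log axis) for the 14889 genes tested, with vertical lines at the 7 members. BTG1 at 2.10 and GADD45A at 1.24 lie in the upper tail, BTG2 and BTG3 at 0.47 and 0.39 on the upper shoulder, GADD45B and TOB2 next to the peak, and TOB1 at -0.62 on the lower shoulder.

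Set among all genes tested, the log2 fold change of BTG1 was above that of 99.7% of genes, GADD45A above 98.9%, BTG2 above 94.3% and BTG3 above 92.9%. GADD45B and TOB2 were above 58.2% and 59.0%, close to the middle, and TOB1 above 7.98%. A change of at least 2-fold upward with a call was seen for 1.64% of all genes tested and, within the 8, for BTG1 and GADD45A. The authors' deposited table gives log2 fold changes of 2.11 for BTG1, 1.24 for GADD45A, 0.47 for BTG2, 0.40 for BTG3, -0.05 for TOB2, -0.06 for GADD45B and -0.62 for TOB1.

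Levels between genes were compared per length, as FPKM. With NMS-873 the order was GADD45A at 86.6 ± 5.11 FPKM, BTG3 at 45.0 ± 2.32, BTG1 at 18.0 ± 1.16, GADD45B at 17.3 ± 0.278, TOB2 at 13.5 ± 0.496, BTG2 at 11.9 ± 0.846 and TOB1 at 3.02 ± 0.313 FPKM (SD, n = 3). BTG1 and GADD45B were the only neighbours in that order whose libraries overlapped. With DMSO the order was GADD45A at 36.7 ± 2.17 FPKM, BTG3 at 34.2 ± 1.52, GADD45B at 18.0 ± 0.844, TOB2 at 14.0 ± 0.441, BTG2 at 8.60 ± 0.289, TOB1 at 4.63 ± 0.134 and BTG1 at 4.18 ± 0.233 FPKM. Here GADD45A and BTG3 were the only overlapping neighbours. BTG1 thus stood behind GADD45A and BTG3 in mean level with NMS-873 and was the lowest of the 7 with DMSO. With DMSO, GADD45A was above 91.6% of all genes tested in FPKM and BTG1 above 48.6%.

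The make-up of each family differed between treatments. The GADD45 genes together gave 103.9 ± 5.30 FPKM with NMS-873 and 54.7 ± 2.19 FPKM with DMSO (SD, n = 3 each). Within that sum GADD45A supplied 83.4% ± 0.671 with NMS-873 and 67.1% ± 1.75 with DMSO, and GADD45B the rest. The BTG genes summed to 74.9 ± 4.31 FPKM with NMS-873 and 47.0 ± 1.97 FPKM with DMSO. BTG1 made up 24.0% ± 0.227 of the BTG sum with NMS-873 and 8.90% ± 0.333 with DMSO, BTG2 15.9% ± 0.235 with NMS-873 and 18.3% ± 0.156 with DMSO, and BTG3, the main one in both, 60.1% ± 0.450 with NMS-873 and 72.8% ± 0.357 with DMSO. The TOB genes summed to 16.6 ± 0.755 FPKM with NMS-873 and 18.7 ± 0.312 FPKM with DMSO, of which TOB2 gave 81.8% ± 1.18 with NMS-873 and 75.2% ± 1.12 with DMSO. The TOB sum stayed lower with NMS-873 under TMM factors, at 17.2 ± 0.261 FPKM with NMS-873 and 18.0 ± 0.203 with DMSO, and under the other scalings tried. The shares do not depend on the scaling of libraries. Within a family they add up to the whole, so the share of each gene moves with the levels of the others. GADD45B and TOB2 thus differed in share between treatments although their own normalised counts overlapped.

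**Figure D3:**
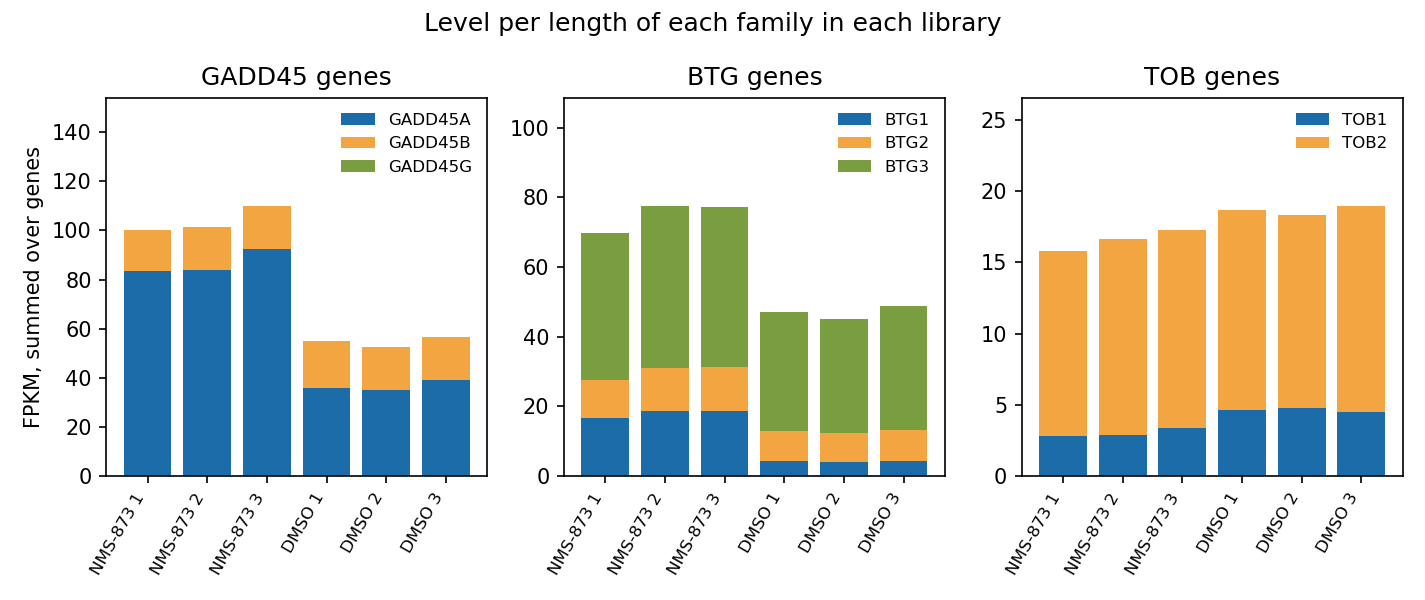
FPKM of each gene, stacked within its family, in NMS-873 replicates 1 to 3 and DMSO replicates 1 to 3; each bar is 1 library and the vertical axes differ between families. The GADD45 and BTG bars are taller with NMS-873, through GADD45A and through all 3 BTG genes, while the TOB bars are lower, with a smaller TOB1 part; GADD45G is at 0.

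Apart from expression, most of the 8 genes are compact. The genomic span in the deposited annotation was 1543 bases for GADD45G, 2138 for GADD45B, 3278 for GADD45A, 3388 for BTG1, 4112 for BTG2, 5756 for TOB1, 13532 for TOB2 and 19295 for BTG3, against a median of 30100 bases over all genes tested. BTG1, with the largest difference between treatments, was longer than 9.38% of the genes tested, and GADD45B, whose groups overlapped, than 5.61%. A link between span and response was not tested. Exonic length was worked out from the ratio of normalised count to FPKM, so GADD45G, without a read, has none. Among the 7 members with a read it ran from 2069 bases in GADD45A to 4565 in TOB2. The median was 4547 over all genes tested. Of the 8, GADD45A and BTG2 share chromosome 1 and lie far apart on it, and the others lie each on a chromosome of their own.

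By profile over the 6 libraries, measured as the Euclidean distance of log2 values after subtracting the DMSO mean and compared with 12070 other genes, the nearest genes to BTG1 were DNAJC3, a co-chaperone of BiP (distance 0.136), and EGR1, an immediate early transcription factor (distance 0.190). DNAJC3 was at 4594, 4616 and 4852 normalised counts with NMS-873 and 1138, 1057 and 1061 with DMSO, and EGR1 at 4639, 5097 and 5465 with NMS-873 and 1093, 1108 and 1249 with DMSO. Nearest to GADD45A were CEBPG, a bZIP transcription factor that pairs with ATF4 (distance 0.0905), at 3125, 3352 and 3445 normalised counts with NMS-873 and 1404, 1332 and 1459.7 with DMSO, and MYC (distance 0.0986). PPM1B, a protein phosphatase, and PHLDA3, a p53 target that restrains AKT, were nearest to BTG3 at distances of 0.0529 and 0.0629. ZNF526 and ZNF800, zinc finger genes, were nearest to BTG2 (0.0487 and 0.0519), and SLITRK4 and FOXRED2 to TOB1 (0.0799 and 0.105). The genes nearest to GADD45B were ITPR3 and CEP135 (0.0287 and 0.0392), and those nearest to TOB2 were DDX56 and PPP4R1 (0.0214 and 0.0241). The distance takes in both the fold change and the scatter of the libraries.

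Of 13 tested genes listed for the cascade from GADD45 to p38 and JNK, 2 rose and 6 fell. The median of their log2 fold changes was -0.13, beside -0.10 over all genes tested. The list includes GADD45GIP1, which encodes a GADD45-interacting protein and not a kinase of the cascade. It did not pass (log2 fold change -0.13, limma adjusted p = 0.108; named after its values were seen). Of all genes tested, 14.9% were called higher and 33.0% lower, the shares to set beside the counts of this and the following lists. No list was tested as a set. MAPK14, which encodes p38 alpha, was at 952 ± 21.0 normalised counts with NMS-873 and 1221 ± 22.8 with DMSO (log2 fold change -0.36, limma adjusted p = 4.29e-08), and MAPK12, which encodes p38 gamma, fell by 0.24 on the log2 scale (limma adjusted p = 4.3e-04). MAPK8, which encodes JNK1, rose by 0.20 (limma adjusted p = 0.00147). MAP2K6, an activator of p38 named after its values were seen, also passed (log2 fold change 0.75, limma adjusted p = 0.0145), but it was low, at 16.0 to 37.2 normalised counts with NMS-873 and 10.3 to 17.9 with DMSO, and its groups overlapped. MAP3K4, the kinase GADD45 proteins bind, was at 1734 ± 119 normalised counts with NMS-873 and 1884 ± 21.6 with DMSO and did not pass (limma adjusted p = 0.0588; named after its values were seen). With TMM or median-of-ratios factors 3 rose and 2 fell. The rises numbered 1 without NMS-873 replicate 2, NMS-873 replicate 3 or DMSO replicate 1, with a minimum of 50, with no minimum and on log2(FPKM + 0.1); without the variance trend limma called 0 rises, against 2 with voom and 2 at an unadjusted p under 0.05 with the trend.

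Of 14 GADD45 partners in the cell cycle and in DNA demethylation, 2 rose and 9 fell, at a median log2 fold change of -0.18. TET1, an enzyme that oxidises 5-methylcytosine, was low, at 23.1, 22.5 and 21.7 normalised counts with NMS-873 against 81.2, 86.5 and 69.5 with DMSO. Its groups were far apart (log2 fold change -1.77, SE 0.186, limma adjusted p = 3.02e-17), whereas TET3, a related enzyme, was at 4009 ± 316 normalised counts with NMS-873 and 2597 ± 120 with DMSO and rose 1.54-fold (limma adjusted p = 2.43e-23). ERCC4, a nuclease subunit of nucleotide excision repair, was 1.54-fold lower (limma adjusted p = 1.21e-13). The other rise was MBD4, a DNA glycosylase, at 1.29-fold (limma adjusted p = 3.22e-08; named after its values were seen). Named after their values were seen, the direct GADD45 partners CCNB1, PCNA and CDK1 also fell, at log2 fold changes of -0.45, -0.20 and -0.17. The median over all genes tested was -0.10, so the falls of PCNA and CDK1 lie near the shift of the typical gene. With TMM or median-of-ratios factors, or without the variance trend, 6 of the list fell.

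BTG and TOB proteins work through the deadenylation machinery. Of 16 genes of CCR4-NOT, PAN and poly(A)-binding proteins, 3 rose and 4 fell, and the median log2 fold change was -0.06. These counts lie near the shares of all genes tested, 14.9% higher and 33.0% lower, so nothing is read from them. CNOT3 rose 1.48-fold, to 2192 ± 127 normalised counts with NMS-873 against 1481 ± 78.9 with DMSO (limma adjusted p = 4.83e-19), and CNOT1, the scaffold of the complex, rose 1.26-fold (limma adjusted p = 3.17e-08). PAN2, a deadenylase outside CCR4-NOT, was 1.38-fold lower (limma adjusted p = 2.04e-09). Of the 2 deadenylases that bind BTG and TOB proteins, CNOT8 rose 1.20-fold (limma adjusted p = 5.2e-05), and CNOT7 was at 3429 ± 207 normalised counts with NMS-873 and 3662 ± 101 with DMSO and did not pass (log2 fold change -0.10, limma adjusted p = 0.131). CNOT6L, CNOT6 and RQCD1 also fell, at log2 fold changes of -0.31, -0.23 and -0.15, and PABPC1 was at -0.05 and did not pass. CNOT8, CNOT7, PABPC1 and these 3 are named with their values already known.

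Of 17 genes of decapping and decay from the 5′ end, 2 rose and 9 fell (median log2 fold change -0.16). DCP2, the decapping enzyme, was 1.24-fold lower, as was LSM3, a subunit of the ring that activates decapping (limma adjusted p = 9.08e-07 and 1.08e-06), while DCP1A rose 1.25-fold and the exonuclease XRN1, named after its values were seen, 1.19-fold. Of 14 factors of nonsense-mediated decay, a pathway known to limit GADD45A and GADD45B transcripts, 0 rose in limma (1 at an unadjusted p under 0.05, 0 with voom) and 9 fell (median log2 fold change -0.14). SMG9 was 1.31-fold lower, UPF1, the central helicase, at 2028 ± 76.6 normalised counts with NMS-873 and 2592 ± 46.6 with DMSO, 1.28-fold lower, and UPF2 1.17-fold lower (limma adjusted p = 3.7e-09, 3.92e-09 and 1.79e-04). Scaling moved both counts: with TMM factors the falls numbered 5 for decapping and 4 for nonsense-mediated decay, with median-of-ratios factors 5 for each, and under both 1 gene of nonsense-mediated decay rose. Without the variance trend both lists had 5 falls. In nonsense-mediated decay the falls numbered 5 without NMS-873 replicate 1 or DMSO replicate 3, and 1 gene rose without NMS-873 replicate 1, NMS-873 replicate 3 or DMSO replicate 1.

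Among 14 proteins that bind AU-rich and other regulatory elements of messenger RNAs, 2 rose and 2 fell (median log2 fold change -0.08). ZFP36L1 and ZFP36L2, paralogues that both promote decay of AU-rich transcripts, went opposite ways. ZFP36L2 was at 531, 522 and 572 normalised counts with NMS-873 against 1106, 1031 and 1152 with DMSO (log2 fold change -1.02, SE 0.0637, limma adjusted p = 2.97e-38), and ZFP36L1 at 11347 ± 723 with NMS-873 and 7877 ± 447 with DMSO (log2 fold change 0.53, limma adjusted p = 1.77e-16). TIA1, which binds U-rich stretches and is known from stress granules, was 1.22-fold lower (limma adjusted p = 2.34e-05). With TMM or median-of-ratios factors 5 of the list rose, and 1 without a count minimum, without the variance trend, or without NMS-873 replicate 2, NMS-873 replicate 3, DMSO replicate 2 or DMSO replicate 3.

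Of 7 further BTG/TOB partners and relatives tested, 2 rose and 1 fell (median log2 fold change 0.05). HOXB9, a homeodomain partner of BTG1 and BTG2, rose 1.41-fold, SMAD4 1.23-fold, and ERBB2 was 1.14-fold lower (limma adjusted p = 1.93e-14, 3.64e-05 and 0.00185). With TMM or median-of-ratios factors 4 of them rose and ERBB2 did not pass. PRMT1, the arginine methyltransferase that binds BTG1 and BTG2, was at a log2 fold change of -0.01 and did not pass (limma adjusted p = 0.925; named after its values were seen). BTG4, the remaining BTG gene, had 2 to 5 reads per library and was not tested.

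Of 15 transcription factors reported at GADD45 and BTG genes, 7 rose and 2 fell (median log2 fold change 0.10). DDIT3, which encodes CHOP, rose 34.6-fold (limma adjusted p = 4.28e-187), EGR1 4.41-fold (limma adjusted p = 9.12e-106) and ATF4 1.91-fold (limma adjusted p = 2.04e-37). The 2 that fell were FOXO1, at 78.4 ± 5.30 normalised counts with NMS-873 and 122 ± 8.78 with DMSO, and BRCA1, 1.12-fold lower, while FOXO3 rose 1.24-fold; these 3 are named with their values already known. With TMM factors 11 rose and 1 fell, and without DMSO replicate 1 or the variance trend 1 fell.

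GADD45A and BTG2 belong with the p53 targets, of which 22 others were listed and 21 tested; 11 rose and 5 fell (median log2 fold change 0.19). PMAIP1, which encodes the BH3-only protein NOXA, rose 2.53-fold, at 2385, 2678 and 2686 normalised counts with NMS-873 against 1001, 997 and 1065 with DMSO (limma adjusted p = 4.66e-64). TNFRSF10B, which encodes the death receptor DR5, rose 1.99-fold (limma adjusted p = 1.19e-46). PLK2 moved the other way, at 1922, 1990.0 and 2086 normalised counts with NMS-873 against 4214, 3869.9 and 4106 with DMSO (log2 fold change -1.02, limma adjusted p = 2.06e-48), and POLH, TP53I3, DDB2 and RPS27L, named after their values were seen, also fell, at log2 fold changes of -0.51, -0.32, -0.17 and -0.15, RPS27L with overlapping groups. With TMM factors 12 rose and 3 fell. Several of the genes that rose, among them PMAIP1 and TNFRSF10B, are also known targets of ATF4 or CHOP. Which factors acted on them here was not tested.

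**Figure D4:**
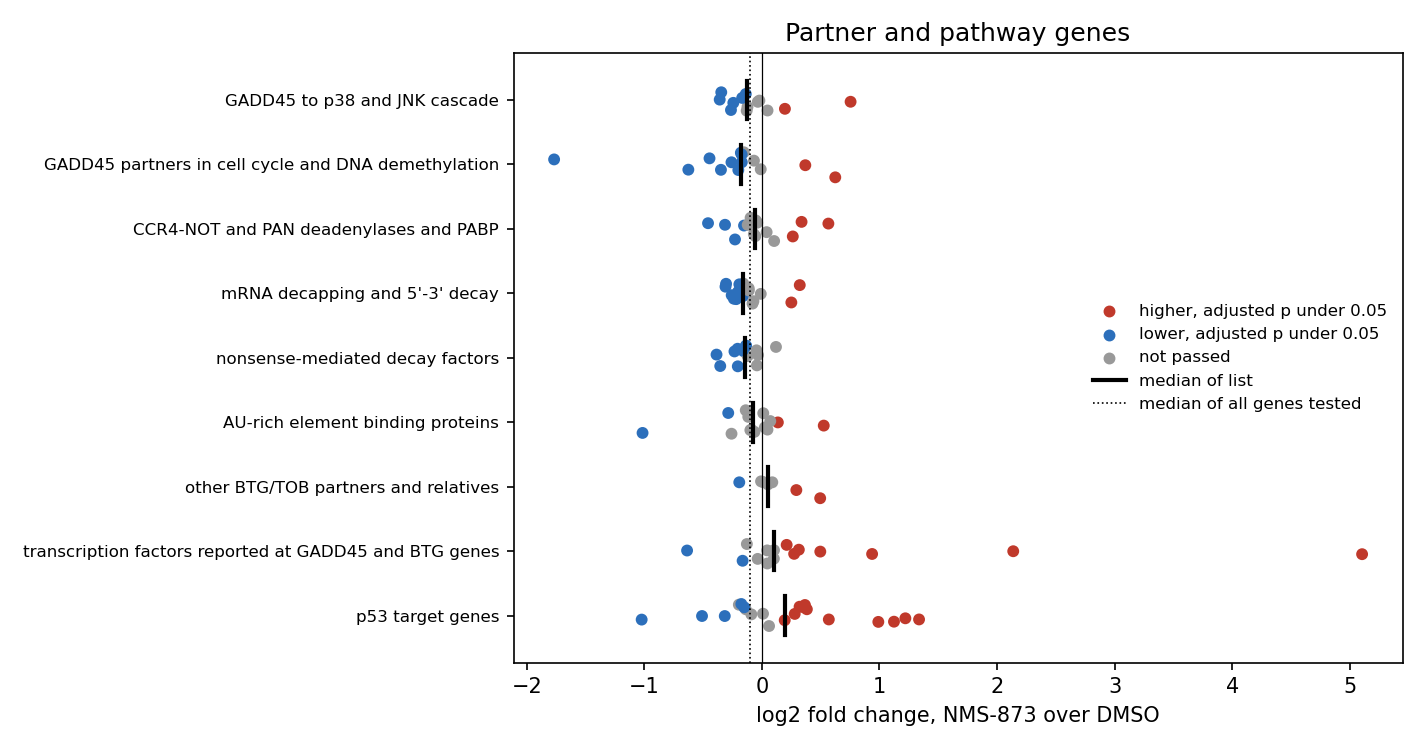
Log2 fold change of each tested gene in the 9 lists; red and blue points passed limma's adjusted p of 0.05 upward and downward, grey points did not, black bars are list medians and the dotted line is the median of all genes tested at -0.10. The medians of the first 6 lists lie between -0.18 and -0.06, and those of the transcription factors and p53 targets are at 0.10 and 0.19, with DDIT3 as the point beyond 5.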

How the data were processed

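Polyadenylated RNA of 6 U2OS libraries was measured, grouped by title into 3 treated with NMS-873 and 3 with DMSO. The 1 deposited table gives, per the file headers, the mean of normalised counts over the 6 libraries (a signal in reads after scaling), the submitters' log2 fold change and their adjusted p-value. The sample columns are FPKM as deposited, a unit identified here from the values, since on the spike-in rows each value equals the normalised count per base of length times 1 constant. The submitters' processing notes name hg19, featureCounts 1.5.1 and DESeq2 1.16.1. The aligner and any use of strand in counting are not given in the sources used here, so reads of overlapping antisense genes cannot be told apart.

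Normalised counts were rebuilt as FPKM times the deposited mean normalised count over the mean FPKM. Multiplied by the library's size factor, 100% of the non-zero values came within 0.001 of a whole read. These factors match median-of-ratios factors of the ERCC spike-in rows (largest relative difference 1.7e-14), so the values are scaled to spike-in RNA, and an error in spike-in amount would move all genes. Genes averaging 10 or more normalised counts were tested in limma 3.58.1 (R 4.3.3) on log2(normalised count + 1), fitting treatment alone, with an intensity trend, two-sided tests and Benjamini-Hochberg adjustment over all 14889 genes tested, at 0.05. With 6 libraries, limma gave the variance trend over all genes a weight of 250.8 prior degrees of freedom. Each SE and p-value thus rests mostly on that trend, and little on the gene's own spread, which the SD shows. Fold changes on this scale understate those of low genes; folds in the text are ratios of mean normalised counts unless a log2 value is given. The procedure was tested on simulated counts in which no library stood apart from its group, unlike NMS-873 replicate 1 here. Without molecular identifiers, floors cover counting error only.

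The 8 genes and the 9 partner lists were chosen with earlier results of these data known. Genes are named by rule: the 8 genes always, up to 3 per list, those of lowest adjusted p that passed, and for each of the 8 averaging 50 or more normalised counts the 2 genes nearest in profile. The text marks any other gene as named with its values known. Some list genes are counted but not reported by name here. Promoter letters are from RefSeq (GRCh38.p14), matched by symbol for 7 of the 8 genes. Alternatives were TMM factors, median-of-ratios factors, equal totals, a minimum of 50, no minimum, a pseudocount of 0.5, log2(FPKM + 0.1), no variance trend, voom on the rebuilt reads, leaving out each library, and a replicate block.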

Additional observations from a re-analysis of the deposited data

How the results depend on the processing

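All 7 members with a read kept the same call under all 16 alternatives: GADD45A, BTG1, BTG2 and BTG3 higher, TOB1 lower, GADD45B and TOB2 not passed. Over these alternatives the log2 fold change ran from 2.06 to 2.21 for BTG1, 1.19 to 1.35 for GADD45A, 0.43 to 0.58 for BTG2, 0.36 to 0.50 for BTG3, -0.70 to -0.51 for TOB1, -0.08 to 0.05 for GADD45B and -0.07 to 0.06 for TOB2. Scaling moved the counts over many genes: of all genes tested, 2217 were called higher and 4910 lower as deposited, 3869 and 2992 with TMM factors, and 3761 and 3103 with median-of-ratios factors over genes. The factors computed over genes set the median gene near 0 by construction, against -0.10 with the spike-in scaling. Leaving out 1 library at a time gave 1870 to 2406 genes higher and 4005 to 4957 lower. Without the variance trend 1801 genes were higher and 3706 lower. Over the 9 lists together, 47 genes fell as deposited, 26 with TMM factors and 27 with median-of-ratios factors. Same-numbered libraries correlated at 0.04, -0.03 and 0.04 in their deviations from the group means, and differently numbered ones at -0.07 to 0.03. These correlations run over all genes tested and include counting noise. They cannot decide whether the replicate numbers pair the libraries. With the replicate number as a block, 4 members were higher and 1 lower, 2352 genes were higher and 5255 lower, and 32 list genes were higher and 50 lower, among them 1 nonsense-mediated decay gene higher, against 0 without the block. Depth limits GADD45G, with 0 reads, and the low genes MAP2K6 and TET1.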
